A study of Mus musculus with 9 samples.

Results

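Livers of untreated ob/ob mice were compared with livers of lean mice at the level of their transcripts, on Affymetrix Mouse Gene 1.0 ST arrays. The comparison rests on 6 of the 9 arrays of the series, chosen by the group given in the sample titles. The N-control group (3 arrays) was wild-type C57BL/6J, and the OB-control group (3 arrays) was ob/ob, of strain B6.V-Lepob/J per the labels. Both groups received tap water by gavage 2 times a day over 3 weeks and ate normal chow, and the livers were frozen after 8 h without food. Per the methods all mice were male, 6 weeks old at purchase, the lean mice were littermates of the ob/ob mice, and each group held 6 mice, of which 3 were arrayed. The other 3 arrays, of ob/ob mice given TUDCA (a taurine-conjugated bile acid), entered the estimate of the spread and are otherwise shown only for Nnt and the exocrine pancreas genes. Values are log2 signals from RMA, which subtracts background, brings all arrays to the same distribution and condenses the probes of a probe set into 1 value, and 19938 genes with a symbol of their own were tested.

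Leptin is the hormone by which fat tissue reports its stores to the hypothalamus. The ob allele of Lep ends the protein early, and ob/ob mice overeat, become obese and insulin resistant and store triglyceride in the liver. Mouse liver also differs between the sexes, because males release growth hormone in pulses and females more evenly, and the Jak2 and Stat5b pathway in hepatocytes reads that pattern. A set of P450s, sulfotransferases, transporters and major urinary proteins is therefore predominant in males or in females. Pparg is a nuclear receptor of fat cells that switches on lipid uptake and lipid droplet genes, also in fatty liver.

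Lep, the mutated gene, had log2 signals of 3.22, 2.96 and 2.76 on the N-control arrays and 2.83, 3.18 and 2.94 on the OB-control arrays. The groups overlapped, with a difference of 0.00 (standard error 0.13). For scale, the median of all genes on these 6 arrays was 4.93 and the 5th percentile 2.52, so Lep was low throughout and does not check the genotype labels. Of the defining hepatocyte markers 7 of 8 were measured, with a mean signal per array of 12.58 to 12.65 in N-control and 12.42 to 12.52 in OB-control mice, and Alb, albumin, was at 13.3 or more on every array. The OB-control means of these 7 markers all lay below the N-control means, and none of the 7 passed the test. None of the 6 Kupffer cell, 4 stellate cell, 3 sinusoidal endothelial, 3 bile duct, 5 islet, 4 adipocyte or 4 lymphocyte and granulocyte markers measured passed, against 0.948% of all genes. Alas2, the 1 red cell marker measured, had 7.99 to 8.42 in N-control and 7.53 to 7.71 in OB-control mice, and did not pass (adjusted p = 0.080 from limma). Adipoq, which fat cells make, stayed at 2.52 to 2.92 on the 6 arrays. In whole liver, fewer cells of a type and less RNA per cell cannot be told apart.

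N-control replicate 2 stood apart from the other arrays in digestive enzymes of the exocrine pancreas. The mean signal of 27 such genes was 9.25 there, against 3.87 and 3.72 on N-control replicates 1 and 3 and 3.80 to 3.95 on the OB-control arrays. None of the 27 passed the test, but this array is 1 of 3 behind every lean mean. The paragraphs on gene groups therefore name the genes that missed the threshold without it. Array medians ran from 4.50 to 4.58, and Pearson r across all probe sets was 0.979 to 0.990 between any pair of the 6 arrays. These coefficients are across probe sets, which are not independent replicates.

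Leptin-deficient liver had 91 genes higher than lean liver (0.456% of the genes tested) and 98 lower (0.492%), taking an adjusted p from limma under 0.05 as the threshold. That is 189 genes or 0.948% in all. These shares are the background for the counts of each gene list below. At shares this low a list of the sizes used here can hold no called gene, so a count of 0 does not set a list apart from all genes. The arrays of the 2 groups lay apart for all 189. They also lay apart for 1693 genes in favour of OB-control mice (8.49%) and for 1349 in favour of N-control mice (6.77%), so that lying apart is by itself common. The median difference was 0.94 on the log2 scale among the genes called higher, -0.85 among those called lower and 0.02 over all genes. Of the genes called, 40 were at least 2-fold higher and 37 at least 2-fold lower, and 10 and 12 at least 4-fold. Before adjustment, p lay under 0.05 for 1306 genes that were higher and for 1115 that were lower. The counts depended on single arrays: leaving out N-control replicate 2 left 30 higher and 37 lower, and N-control replicate 1 left 27 and 33. Leaving out OB-control replicate 1 left 30 and 37, OB-control replicate 3 left 43 and 55, and OB-TUDCA replicate 2 left 55 and 62. Leaving out OB-control replicate 2 raised them to 127 and 139. With 3 mice a group an exact permutation test of a single gene cannot go below p = 0.1, and the number of arrays limits the precision.

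**Figure D1:**
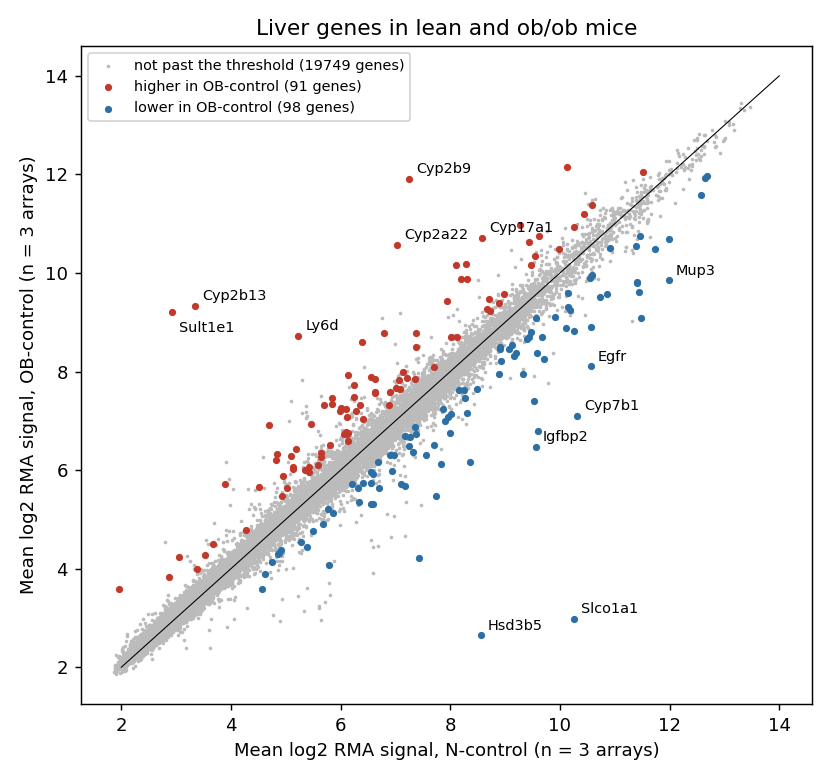
Mean log2 RMA signal of each gene in N-control (horizontal) and OB-control mice (vertical), n = 3 arrays each. The line marks equal means; of the coloured genes, Slco1a1 and Hsd3b5 lie farthest below it and Sult1e1, Cyp2b13 and Cyp2b9 farthest above it.

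Genes that are predominant in male liver were the largest group among those that fell. Of 30 measured, 13 fell, none rose and 17 did not pass, where 0.492% of all genes fell. The median difference of the list was -1.20 on the log2 scale, against 0.02 over all genes. Of the 30, 26 had a lower mean in OB-control mice, as had 8562 of all 19938 genes. The list was written with earlier results of these data known. Slco1a1, a transporter of organic anions at the hepatocyte's sinusoidal membrane, fell most of all genes. Its log2 signal was 10.40, 10.15 and 10.19 in N-control mice and 2.87, 3.09 and 2.98 in OB-control mice. The lean arrays were thus near the top of the scale and the ob/ob arrays near the bottom, a difference of -7.27 (standard error 0.16) or 154-fold. Hsd3b5, a 3-ketosteroid reductase of male liver, had 8.73, 8.73 and 8.20 in N-control and 2.67, 2.57 and 2.72 in OB-control mice, 59.8-fold lower in the latter. No detection calls were used here, so whether the low signals lie above background is not known, and the folds are those of RMA signals. Cyp7b1, an oxysterol hydroxylase, had 9.93, 10.38 and 10.64 against 6.82, 7.46 and 7.01, a difference of -3.22 (standard error 0.24) with every ob/ob array below every lean one.

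The major urinary proteins carry pheromones into the urine. Mup3 had signals of 11.96, 11.98 and 12.01 in N-control and 10.03, 9.42 and 10.11 in OB-control mice, and Mup21 had 9.39, 9.53 and 9.64 against 6.75, 7.72 and 7.72. Both fell by 2.13 on the log2 scale (standard errors 0.16 and 0.34). Cyp4a12a and Cyp4a12b, fatty acid omega-hydroxylases, fell by 1.84 and 1.59, with the lean arrays between 11.07 and 11.78 and the ob/ob arrays between 8.99 and 10.22. Cyp2d9, a steroid hydroxylase, fell by 1.29 (standard error 0.10). C6 and C8a, terminal complement proteins, fell by 2.81 and 1.67, and Susd4, a complement regulator, by 1.72. Gstp1, a glutathione S-transferase, and Ugt2b38, a glucuronosyltransferase, fell by 0.73 each. Mup genes, and likewise the Cyp4a12 pair, are close copies of each other, so the signal of 1 member may hold that of others. Of the 17 that did not pass, Elovl3, a fatty acid elongase, had the largest difference, at -2.79. Slco1a1, Hsd3b5, Cyp7b1, C6, Mup3, Susd4, Cyp4a12b and Cyp2d9 were past the threshold without each of the 9 arrays in turn. C8a, Cyp4a12a, Gstp1, Mup21 and Ugt2b38, some or all, missed it without N-control array 1 (0.0511 to 0.162), 2 (0.0668 to 0.162), 3 (0.0515 to 0.113), OB-control array 1 (0.081 to 0.193), 2 (0.058 to 0.0914), 3 (0.0557 to 0.111), OB-TUDCA array 1 (0.0634), 2 (0.0708 to 0.0766) or 3 (0.0695) (adjusted p from limma), and all 5 missed it without N-control replicate 2, which left 8 of the list lower.

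Genes that are predominant in female liver led those that rose. Of 32 measured, 13 rose, none fell and 19 did not pass, where 0.456% of all genes rose, and the list's median difference was 0.86 on the log2 scale. The mean was higher in OB-control mice for 29 of the 32 and lower for 3. Before adjustment p from limma lay under 0.05 for 22 that were higher and for 3 that were lower. This list, too, was written with earlier results known. Sult1e1, the estrogen sulfotransferase, had log2 signals of 2.69, 2.92 and 3.17 in N-control and 8.42, 10.22 and 8.97 in OB-control mice. It was near the bottom of the scale in lean mice and 77.4-fold higher in ob/ob mice, a difference of 6.28 (standard error 0.52, adjusted p = 0.000598 from limma). Cyp2b13, a P450 of female liver, had 2.50, 4.01 and 3.51 against 9.87, 8.53 and 9.60, a difference of 5.99 (standard error 0.47). Cyp2b9, its neighbour on chromosome 7, had 7.46, 7.36 and 6.92 against 12, 11.96 and 11.78, a difference of 4.67 (standard error 0.14). The ob/ob arrays of Cyp2b9 were among the highest signals of the liver and lay within 0.22 of each other. The 250 bases before the start of these 2 genes, from RefSeq on GRCm38.p6, are shown because they are nearly the same. Capitals mark the 2 bases that differ (T48C and C104T, the base of Cyp2b9 first, counted from 1 at the 5′ end).
Cyp2b9, chr7:26173159-26173408, plus strand: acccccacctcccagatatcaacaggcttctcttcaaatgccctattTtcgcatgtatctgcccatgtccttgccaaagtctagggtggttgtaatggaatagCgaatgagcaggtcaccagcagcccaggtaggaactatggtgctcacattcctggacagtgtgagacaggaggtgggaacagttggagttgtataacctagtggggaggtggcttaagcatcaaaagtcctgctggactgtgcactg
Cyp2b13, chr7:26061245-26061494, plus strand: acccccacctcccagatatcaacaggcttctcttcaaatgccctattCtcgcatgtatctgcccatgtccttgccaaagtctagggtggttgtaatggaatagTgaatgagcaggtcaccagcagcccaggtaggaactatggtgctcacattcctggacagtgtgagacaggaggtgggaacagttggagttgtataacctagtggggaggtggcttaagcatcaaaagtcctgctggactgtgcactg
The likeness shown is that of the bases before the gene start. Transcript and probe sequences of the pair were not compared. Whether their probes share signal is not known, and the levels of the pair are uncertain to that extent. Cyp2b10, the phenobarbital-induced member, has a different promoter: over 300 bases it differs from Cyp2b9 by an edit distance of 84, against 2 between Cyp2b9 and Cyp2b13. Its signals were 7.45, 8.43 and 8.46 in N-control and 10.25, 9.97 and 10.25 in OB-control mice, a rise of 2.05 (standard error 0.24).

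Cyp2a22, a further P450 of the same chromosome, rose by 3.54 (standard error 0.14), from 7.02, 7.31 and 6.77 to 10.47, 10.69 and 10.56. Ly6d, a small membrane-anchored protein, had 5.03, 5.78 and 4.88 against 8.62, 7.60 and 9.95, so its ob/ob arrays spread over more than 2 log2 units while lying above the lean ones. Cyp17a1, the steroid 17-hydroxylase, rose by 2.14 (standard error 0.17), and Slc22a27, an organic anion transporter, by 2.21 (standard error 0.28). Sult3a1, an amine sulfotransferase, was at 1.97, 1.95 and 1.95 in N-control and at 2.85, 3.66 and 4.23 in OB-control mice, low on all arrays. Cd36, Vldlr and Acot3, on lipid lists as well, and Abcd2, a peroxisomal transporter of very long chain fatty acids, rose by 1.70, 1.26, 1.61 and 1.42. Hao2, a peroxisomal hydroxy acid oxidase, had the largest difference (1.75) of those that did not pass. Sult1e1, Cyp2b13, Cyp2b9, Cyp2a22, Cyp17a1, Cyp2b10 and Cd36 were past the threshold without each of the 9 arrays in turn. Abcd2, Acot3, Ly6d, Slc22a27, Sult3a1 and Vldlr, some or all, missed it without N-control array 1 (0.0511 to 0.154), 2 (0.0506 to 0.136), 3 (0.0936 to 0.105), OB-control array 1 (0.0547 to 0.172), 2 (0.0718 to 0.0812), 3 (0.0673 to 0.0785), OB-TUDCA array 1 (0.0638 to 0.0764), 2 (0.0655 to 0.075) or 3 (0.0535 to 0.0649) (adjusted p), and without N-control replicate 2 these were all of them but Vldlr. Of the list, 8 rose without that array.

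**Figure D2:**
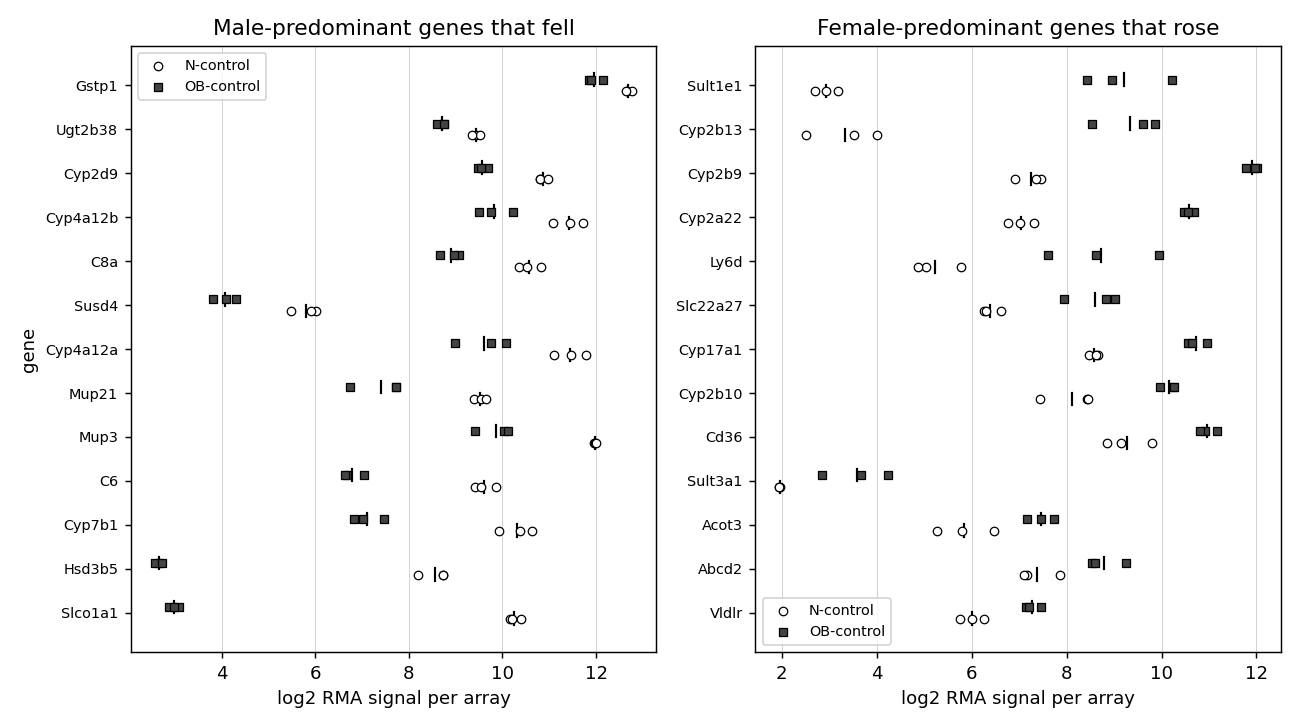
Log2 RMA signal on each N-control array (open circles) and OB-control array (filled squares) of the 13 male-predominant genes that fell and the 13 female-predominant genes that rose, with a tick at each group mean. In every row the groups lie apart, from Slco1a1 (10.15 or more against 3.09 or less) to Vldlr (6.26 or less against 7.14 or more).

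Of 22 genes of the growth hormone and Igf1 axis, 3 fell (13.6%, against 0.492% of all genes), 1 rose (4.55%, against 0.456%) and 18 did not pass. The list's median difference was -0.26 on the log2 scale. Igfbp2, a carrier protein of the insulin-like growth factors, had 9.53, 9.48 and 9.67 in N-control and 6.46, 6.82 and 6.15 in OB-control mice. It was 8.49-fold lower, with a difference of -3.09 (standard error 0.33, adjusted p = 0.00363 from limma). Egfr, the receptor for epidermal growth factor, had 10.83, 10.58 and 10.27 against 7.71, 8.81 and 7.80, and was 5.47-fold lower. Lifr, the receptor for leukemia inhibitory factor, fell by 1.19 (standard error 0.20), and Igfbp3, the main carrier of Igf1 in serum, rose by 0.62 (standard error 0.11). Ghr, the growth hormone receptor, Stat5b, a transducer of its signal, and Igf1 itself did not pass. Ghr had a difference of -0.35 (standard error 0.11), Stat5b one of -0.15 (standard error 0.09) and Igf1 one of -0.41 (standard error 0.12). Their adjusted p-values were 0.22, 0.57 and 0.19, which do not show that they were alike in the 2 groups.

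Other receptors and signalling genes were among the 25 largest falls. Avpr1a, the hepatic vasopressin receptor, had 7.70, 7.22 and 8.33 in N-control and 5.21, 5.65 and 5.54 in OB-control mice, a difference of -2.28 (standard error 0.24). Npr2, a receptor for C-type natriuretic peptide, fell by 1.70, and Cdh1, E-cadherin, by 1.49. Dusp1, a phosphatase that inactivates Mapks, fell by 1.43 (standard error 0.27). It was the 1 member that passed of 31 immediate early and Mapk feedback genes (3.23%, against 0.492% of all genes). Lepr, the leptin receptor, had 6.56, 4.75 and 4.44 against 4.17, 4.56 and 4.27, with 1 high lean array and overlapping groups, and none of 20 thyroid, leptin and adipokine receptor genes passed. Of 26 insulin signalling genes 1 passed, Igfbp2 (3.85% lower, against 0.492% of all genes). Igfbp2, Egfr and Avpr1a were past the threshold without each of the 9 arrays in turn. Cdh1, Dusp1, Igfbp3, Lifr and Npr2, some or all, missed it without N-control array 1 (0.0802 to 0.142), 2 (0.0536 to 0.143), 3 (0.0936 to 0.0957), OB-control array 1 (0.124 to 0.188), 2 (0.0703 to 0.0801), 3 (0.0839 to 0.118), OB-TUDCA array 1 (0.0645 to 0.0657), 2 (0.0529 to 0.0855) or 3 (0.0538 to 0.0606) (adjusted p from limma). All 5 missed it without N-control replicate 2, which left 2 genes of the growth hormone list lower and none higher.

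Of 28 genes of the Pparg and lipid droplet list, 5 rose (17.9%, against 0.456% of all genes), none fell and 23 did not pass. The list's median difference was 0.59 on the log2 scale. Pparg itself had 6.91, 7.23 and 7.27 in N-control and 8.06, 7.84 and 8.10 in OB-control mice. Cd36, a fatty acid translocase, had 8.85, 9.15 and 9.81 against 10.92, 10.82 and 11.17, a rise of 3.25-fold with the lowest ob/ob array about 1 log2 unit above the highest lean array. Mogat1, which joins a fatty acid to monoacylglycerol, had 4.32, 4.68 and 5.09 against 7.10, 5.92 and 7.72. It rose by 2.21 (standard error 0.39), with OB-control replicate 2 the lowest of its group. Slc25a10, the mitochondrial dicarboxylate carrier, rose by 1.19 (standard error 0.21). Cidec, which fuses lipid droplets, had the largest difference of the list, 2.54, but signals of 4.36, 5.23 and 6.29 against 8.13, 5.85 and 9.52, and did not pass (standard error 0.86, adjusted p = 0.26 from limma). Cidea and Plin2, further lipid droplet proteins, had differences of 2.27 and 0.89 (adjusted p = 0.38 and 0.32 from limma). Cidec, Mogat1, Cidea and Scd2 were all lowest on replicate 2 within the OB-control group. Without that array the difference of Mogat1 was 2.71 (adjusted p = 0.00246 from limma), the difference of Cidea was 3.17 (adjusted p = 0.148), and Scd2 passed the threshold.

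**Figure D3:**
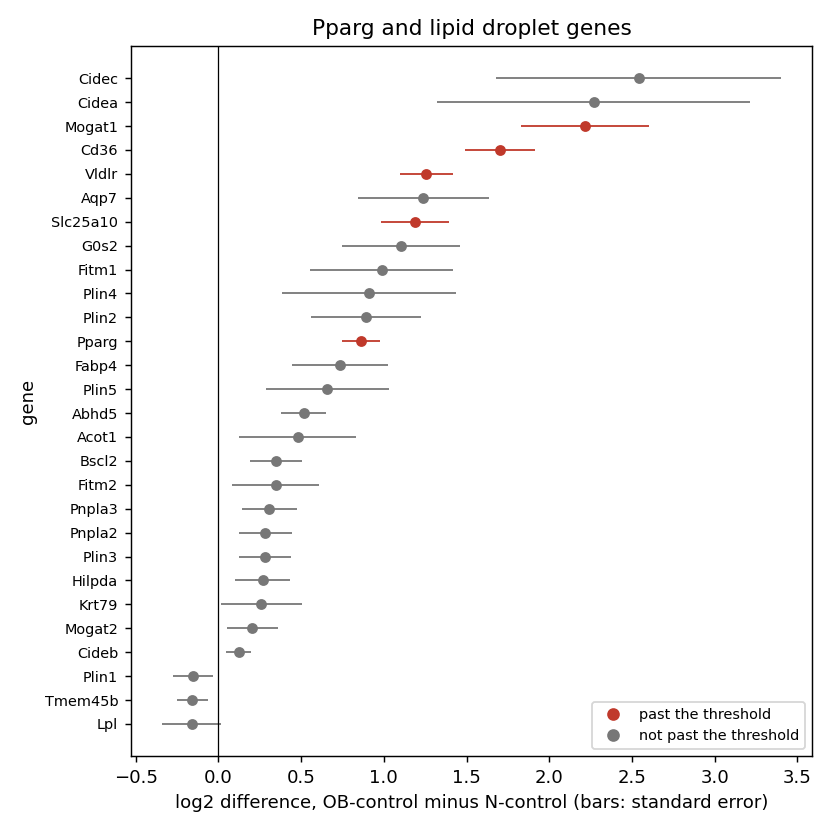
Difference in log2 RMA signal, OB-control minus N-control, with its standard error, for the 28 measured genes of the Pparg and lipid droplet list. The 5 genes past the threshold are in red; Cidec and Cidea have larger differences than these but the widest bars.

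Of 41 measured targets of Ppara and fatty acid oxidation enzymes, 2 rose (4.88%, against 0.456% of all genes), none fell and 39 did not pass. Of the 41, 38 had a higher mean in OB-control mice, as had 11363 of all 19938 genes. The median difference was 0.36 on the log2 scale. Before adjustment p lay under 0.05 for 16 that were higher and 0 that were lower, against 1306 and 1115 of all genes. The 2 that rose were Acot3 and Acot4, peroxisomal acyl-CoA thioesterases, which rose by 1.61 and 1.48 (standard errors 0.29 and 0.20). On the N-control arrays both were lowest on replicate 1 and highest on replicate 3, at 5.27, 5.80 and 6.48 for Acot3. Apoa4, an apolipoprotein that liver makes in steatosis, had 10.05, 10.21 and 10.10 in N-control and 12.52, 11.24 and 12.69 in OB-control mice, 4.08-fold higher. Apom, which carries sphingosine 1-phosphate on HDL, had 9.72, 9.64 and 9.75 against 7.98, 8.55 and 8.25, 2.72-fold lower. The other 19 of 21 apolipoprotein and lipoprotein assembly genes did not pass. Thus 4.76% of that list rose, against 0.456% of all genes, and 4.76% fell, against 0.492%. Abhd2, a lipase of the alpha/beta hydrolase family, rose by 1.57 (standard error 0.25). None of 26 de novo lipogenesis genes passed, against 0.948% of all genes, and a list of this size can hold none at that share. Scd2, the stearoyl-CoA desaturase with the largest difference, had 5.48, 5.91 and 5.53 against 8.54, 6.39 and 7.61, a difference of 1.87 (standard error 0.46, adjusted p = 0.12 from limma, and 0.0145 without OB-control replicate 2). Before adjustment p lay under 0.05 for 3 genes of that list that were higher and for 1 that was lower. None of 26 cholesterol synthesis and uptake genes passed either, to which the same limit applies. Before adjustment in limma 1 was higher and 5 were lower, and the list's median was -0.23. Of the lipid genes, Cd36 and Apom were past the threshold without each of the 9 arrays in turn. Abhd2, Acot3, Acot4, Apoa4, Mogat1, Pparg, Slc25a10 and Vldlr, some or all, missed it without N-control array 1 (0.0511 to 0.154), 2 (0.0518 to 0.134), 3 (0.0592 to 0.0949), OB-control array 1 (0.0639 to 0.172), 2 (0.0718), 3 (0.0737 to 0.113), OB-TUDCA array 1 (0.0657 to 0.067), 2 (0.0527 to 0.075) or 3 (0.0535 to 0.0644) (adjusted p). Without N-control replicate 2 these were all of them but Pparg and Vldlr, so that 3 genes of the Pparg list and none of the Ppara list rose.

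Bile acid and drug metabolism genes changed in both directions, and several of them were already counted above. Slco1a1, Cyp7b1, Cyp2d9 and Ugt2b38 are on the male-predominant list as well. Cyp2b13, Cyp2b9, Cyp2a22 and Cyp2b10 are on the female-predominant list. Of 33 genes of bile acid synthesis and transport, Slco1a1 and Cyp7b1 fell (6.06%, against 0.492% of all genes). Abcc4, an efflux pump of the sinusoidal membrane, was the 1 that rose (3.03%, against 0.456%), by 1.63 (standard error 0.28). Cyp7a1, the rate-limiting enzyme of bile acid synthesis, had 10.17, 11.03 and 10.03 in N-control and 9.09, 8.86 and 10.54 in OB-control mice, and did not pass (adjusted p = 0.58 from limma). Of 47 genes on the list of P450 families 1 to 3, 4 rose, namely Cyp2b13, Cyp2b9, Cyp2a22 and Cyp2b10. They were 8.51%, against 0.456% of all genes. A further 3 fell (6.38%, against 0.492%). The latter were Cyp2d9, Cyp2c70, which makes muricholic acids, at -1.29 (standard error 0.20), and Cyp1a2, which oxidizes aromatic amines, at -1.25 (standard error 0.09). Cyp1a2 was high in both groups, at 11.81, 11.75 and 11.64 against 10.57, 10.42 and 10.48. Of 36 glucuronosyltransferases, monooxygenases and esterases, 3 fell (8.33%, against 0.492% of all genes) and 1 rose (2.78%, against 0.456%). Ces3b, a carboxylesterase of the endoplasmic reticulum, fell by 1.62 (standard error 0.19), and Ces3a had 12.45, 12.64 and 12.64 against 11.65, 11.55 and 11.53. Fmo5, a flavin monooxygenase, rose by 0.53. Sult2a8, a bile acid sulfotransferase, had 11.38, 11.48 and 11.56 against 9.19, 8.73 and 9.33, 5.23-fold lower. Sdr9c7, a short-chain dehydrogenase, fell by 2.19 and Akr1c12, an aldo-keto reductase, by 0.64.

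Of 36 glutathione S-transferase and Nrf2 target genes, 3 rose (8.33%, against 0.456% of all genes) and 1 fell (2.78%, against 0.492%). Nqo1, a quinone reductase that Nrf2 induces, had 6.04, 6.46 and 6.26 in N-control and 7.77, 7.69 and 7.69 in OB-control mice, 2.76-fold higher, with the ob/ob arrays within 0.08 of each other. Gstt3 rose by 0.76 and Gstp1, on the male-predominant list as well, fell by 0.73. Gpx4, which reduces lipid peroxides, rose by 0.68 (standard error 0.11) and was the 1 that passed of 17 antioxidant enzymes (5.88%, against 0.456% of all genes). Ces3a, Ces3b, Cyp1a2, Cyp2b10, Cyp2d9, Nqo1, Sdr9c7 and Sult2a8 were past the threshold without each of the 9 arrays in turn. Abcc4, Akr1c12, Cyp2c70, Fmo5, Gpx4, Gstp1, Gstt3 and Ugt2b38, some or all, missed it without N-control array 1 (0.0698 to 0.162), 2 (0.0618 to 0.162), 3 (0.0546 to 0.101), OB-control array 1 (0.0702 to 0.193), 2 (0.058 to 0.0914), 3 (0.0673 to 0.115), OB-TUDCA array 1 (0.0523 to 0.0704), 2 (0.0521 to 0.0794) or 3 (0.0665) (adjusted p from limma). All 8 missed it without N-control replicate 2, which left 1 of the glutathione and Nrf2 list higher and none lower, and no antioxidant enzyme past the threshold.

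Nnt, the transhydrogenase that makes NADPH in mitochondria, had signals of 8.06, 8.19 and 8.34 in N-control and 9.83, 9.80 and 10.01 in OB-control mice. It was 3.20-fold higher in ob/ob mice (difference 1.68, standard error 0.10, adjusted p = 0.000118 from limma) and was past the threshold without each array in turn. The OB-TUDCA arrays, also of ob/ob mice, gave 9.88, 9.77 and 10.03. C57BL/6J mice of the standard stock carry a deletion of several exons of Nnt, and which Nnt allele the mice of either group carry was not tested. The labels name different strains for the groups, although they and the methods call the lean mice littermates, so a difference between the stocks and the lack of leptin cannot be told apart. Of 123 measured genes within 10 Mb of Lep, a stretch that can travel with the ob allele, 3 passed, or 2.44% against 0.948% of all genes. Cadps2, a factor of vesicle release, and Tspan33, a tetraspanin, fell by 0.78 and 0.68 on the log2 scale, and Trim24, a transcriptional cofactor, rose by 0.65. Cadps2 and Tspan33 were past the threshold without each array in turn. Trim24 missed it without N-control array 1 (0.0515), 2 (0.0507) or OB-control array 1 (0.0534) (adjusted p).

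Of 31 complement genes, 4 fell (12.9%, against 0.492% of all genes), 1 rose (3.23%, against 0.456%) and 26 did not pass. The mean was lower in OB-control mice for 24 of the 31, and for 8562 of all 19938 genes. C6 had 9.41, 9.53 and 9.86 in N-control and 6.68, 6.63 and 7.05 in OB-control mice, 7.03-fold lower (adjusted p = 2.5e-05 from limma). C8a had 10.35, 10.53 and 10.83 against 8.66, 9.08 and 8.97. C1ra and C1s1, the serine proteases that start the classical pathway, fell by 1.39 and 0.73 (standard errors 0.19 and 0.12), and Cd59a, which blocks the membrane attack complex, rose by 0.51. C6 and C8a are on the male-predominant list as well. Of 28 interferon response genes, 2 fell (7.14%, against 0.492% of all genes). Iigp1, an interferon-induced GTPase, had 10.26, 10.02 and 10.06 against 8.90, 8.90 and 8.88, and Ifi27 fell by 0.88 (standard error 0.16). Ifitm3, an interferon-induced membrane protein outside that count, fell by 0.71. Of 32 acute phase genes none passed (7 higher and 6 lower before adjustment in limma). Lcn2, lipocalin 2, came nearest, with 6.07, 7.23 and 6.98 against 8.57, 9.70 and 9.01 (difference 2.33, adjusted p = 0.0528 from limma, range 0.0024 to 0.401 over the alternatives). Against 0.948% of all genes, none of 32 coagulation genes passed (3 higher and 10 lower before adjustment), nor did any of 23 macrophage, 19 stellate cell and fibrosis or 17 lymphocyte and granulocyte genes. Before adjustment these last 3 lists had 1, 0 and 0 genes higher and 0, 2 and 0 lower. C6 and Iigp1 were past the threshold without each of the 9 arrays in turn. C1ra, C1s1, C8a, Cd59a, Ifi27 and Ifitm3, some or all, missed it without N-control array 1 (0.0511 to 0.136), 2 (0.0642 to 0.146), 3 (0.0515 to 0.0949), OB-control array 1 (0.053 to 0.152), 2 (0.0554 to 0.0808), 3 (0.0557 to 0.106), OB-TUDCA array 1 (0.0618 to 0.0687), 2 (0.0571 to 0.0758) or 3 (0.0535 to 0.0665) (adjusted p). All 6 missed it without N-control replicate 2, which left 1 complement gene and 1 interferon response gene lower.

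Some genes of amino acid, iron and protein synthesis lists passed the test, and their shares are given beside those of all genes. Csad, which makes hypotaurine on the way to taurine, had 9.14, 9.30 and 9.56 in N-control and 7.82, 7.74 and 8.29 in OB-control mice, and was 2.60-fold lower. The other 9 genes of its list did not pass, so 10% of it fell, against 0.492% of all genes. Among 60 genes of amino acid breakdown, 3.33% rose, against 0.456% of all genes, and 1.67% fell, against 0.492%. Gpt2, the mitochondrial alanine aminotransferase, and Uroc1, a urocanate hydratase of histidine breakdown, rose by 0.75 and 0.81 on the log2 scale. Csad, on both lists, fell. Asns, asparagine synthetase, had the largest difference of the endoplasmic reticulum stress list (-2.16) but signals of 5.79, 7.59 and 9.0 against 4.77, 6.23 and 4.89, and none of the 36 genes of that list passed (2 higher and 10 lower before adjustment in limma). Hjv, a hemojuvelin that drives hepcidin, rose by 0.69 and was the 1 that passed of 26 iron handling genes (3.85%, against 0.456% of all genes). Of 60 cytosolic ribosomal protein genes, 57 had a lower mean in OB-control mice, as had 8562 of all 19938 genes. Their median difference was -0.23, and in 30 the ob/ob arrays lay below the lean ones, as in 6.77% of all genes. Before adjustment p lay under 0.05 for 29 that were lower and 0 that were higher. After adjustment it did so for Rps15a (1.67% of the list, against 0.492% of all genes), which fell by 0.68. That median was -0.21 after a further quantile normalization and -0.25 with array medians subtracted. Against 0.948% of all genes, none of 82 respiratory chain, 19 circadian clock, 42 cell cycle or 14 urea cycle genes passed, with 2, 2, 7 and 0 higher and 3, 0, 2 and 2 lower before adjustment. Csad was past the threshold without each array in turn. Gpt2, Hjv, Rps15a and Uroc1, some or all, missed it without N-control array 1 (0.096 to 0.119), 2 (0.0586 to 0.125), 3 (0.0593 to 0.101), OB-control array 1 (0.0879 to 0.122), 2 (0.0563 to 0.0718), 3 (0.0705 to 0.0886), OB-TUDCA array 1 (0.0525 to 0.0657), 2 (0.0708) or 3 (0.0617) (adjusted p), and all 4 without N-control replicate 2.

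Of the 189 genes, 131 (62 higher and 69 lower) stood on none of the 48 lists. Among the 25 largest rises these included Lrtm1, a leucine-rich repeat membrane protein, with 6.90, 6.98 and 6.48 in N-control and 8.73, 8.99 and 8.62 in OB-control mice. Lgals1, galectin 1, had 7.76, 8.40 and 8.72 against 10.38, 9.75 and 10.44, and Gprc5b, an orphan receptor, 3.85, 3.77 and 4.04 against 5.67, 5.28 and 6.21. The ob/ob arrays of all 3 lay above the lean ones by a unit of log2 signal or more. Slc16a5, a monocarboxylate transporter, rose by 1.79, Aqp4, a water channel, by 1.5, Treh, trehalase, by 1.48 and Rcan2, a calcineurin regulator, by 1.48. Serpina4-ps1, a serpin pseudogene, had 8.47, 5.84 and 7.95 against 3.90, 4.20 and 4.52, with N-control replicate 2 low among the lean arrays. Lrtm1 and Gprc5b were past the threshold without each of the 9 arrays in turn. Aqp4, Lgals1, Rcan2, Serpina4-ps1, Slc16a5 and Treh, some or all, missed it without N-control array 1 (0.0598 to 0.127), 2 (0.0536 to 0.0993), 3 (0.0714 to 0.11), OB-control array 1 (0.0601 to 0.172), 2 (0.0723), 3 (0.0699 to 0.0917), OB-TUDCA array 1 (0.0646), 2 (0.0795) or 3 (0.0632) (adjusted p from limma). Without N-control replicate 2 these were Aqp4, Rcan2 and Treh.

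**Figure D4:**
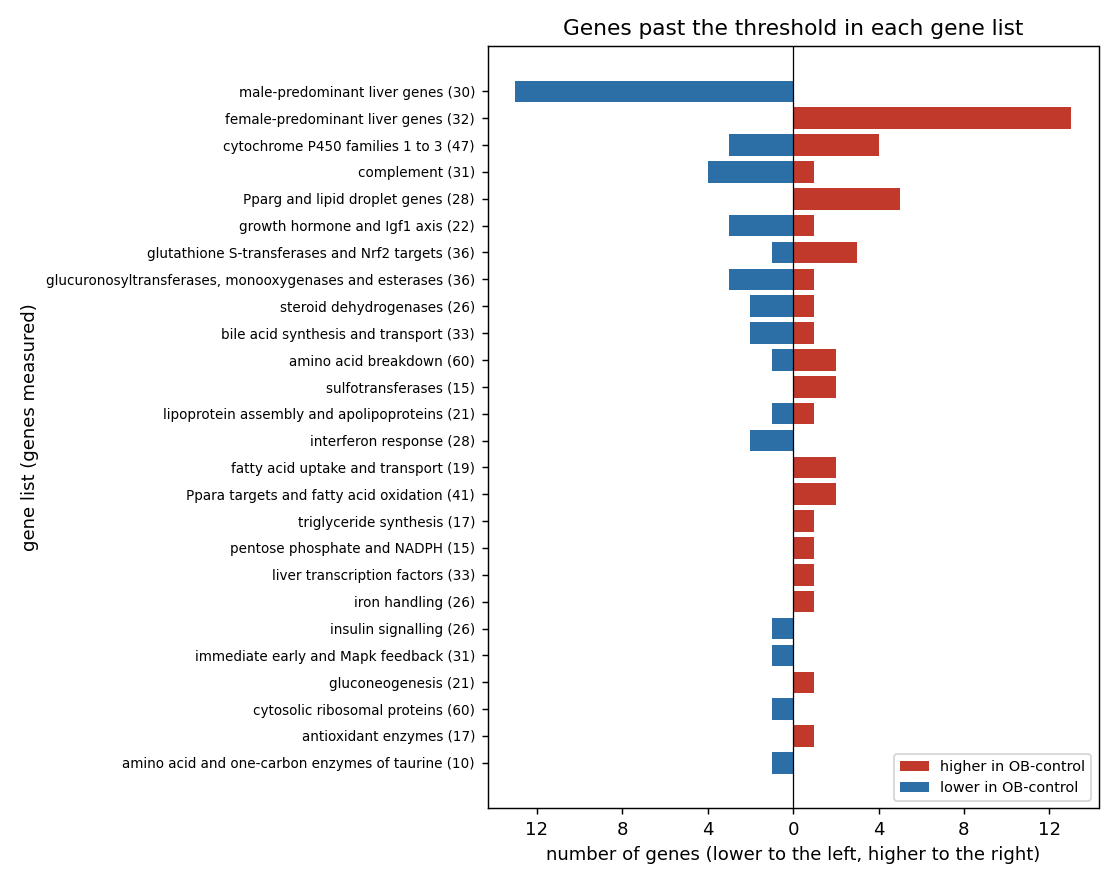
Number of genes past the threshold in each of the 26 lists that held any, higher in OB-control mice to the right and lower to the left, with the number measured in brackets; a gene can be on several lists. The male-predominant (13 lower) and female-predominant (13 higher) lists have the longest bars.

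Motifs were sought on both strands of the promoter, the 250 bases before and 50 after the gene start in RefSeq (GRCm38.p6), which was found for 15614 of the genes tested. Some genes have several starts, and a gene was counted if any of its promoters held a match. TTCNNNGAA, the element that Stat5 and other Stat dimers bind, occurred for 12 of the 79 genes with a promoter that fell (15.2%). It occurred for 3 of the 74 that rose (4.05%) and for 8.99% of all genes with a promoter. Among the male-predominant genes that fell it occurred for 1 of 10 (10%), and among the female-predominant genes that rose for 1 of 10 (10%). A direct repeat of AGGTCA with 1 base between its copies, bound by Ppar and Rxr or by Hnf4a, was sought as AGGTCANAGGTCA with at most 2 mismatches. The repeat occurred for 4 of the 79 (5.06%), 6 of the 74 (8.11%) and 3.98% of all. For the same male- and female-predominant genes the counts were 2 of 10 (20%) and 1 of 10 (10%). A match is a description of the letters and not a binding site, and these shares were not tested. Some of the matches in promoters of genes described above are shown as examples, chosen after their values were seen, with 8 bases on each side and the match in capitals. Abcc4, C1ra and Ifitm3 also held TTCNNNGAA, and Acot4, Treh and Sult2a8 the direct repeat. The first 3 hold TTCNNNGAA and the others the direct repeat, which in Cd36 and Slco1a1 reads on the opposite strand.
Sdr9c7, chr10:127898308-127898332, plus strand: cgtgccccTTCCCAGAAtgcacttg
C8a, chr4:104876610-104876634, minus strand: caaaactcTTCACTGAActgatttt
Sult3a1, chr10:33857605-33857629, plus strand: ttggctgaTTCTTTGAAtagtttgt
Mogat1, chr1:78511001-78511029, plus strand: cagaattcAGGTAAAAAGTCAggctggtg
Cd36, chr5:17835939-17835967, minus strand: tggttctcTGGCCTCTGACTTacttggat
Slco1a1, chr6:141947076-141947104, minus strand: aatgagatTGACCTATGATCTagcatgta
Cyp2d9, chr15:82452315-82452343, plus strand: ggacacagAGGACAAAGGGCAaccctggc
The match in Slco1a1 had 1 mismatch and those in Mogat1, Cd36 and Cyp2d9 had 2. Those in Sult3a1 and Cd36 lie near a start within the gene's span.

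The exocrine pancreas genes set N-control replicate 2 apart from the other 8 arrays. Of 27 measured, 26 were highest on that array among all 9, by a median of 5.90 log2 units over the mean of the other 8. Cpa1, carboxypeptidase A1, had 11.92 there, against 4.18 and 3.67 on N-control replicates 1 and 3 and 3.91, 3.96 and 3.84 in OB-control mice. Ctrb1, chymotrypsinogen B, had 11.90 against 4.96 and 4.68, and Cpb1, carboxypeptidase B1, 11.56 against 2.72 and 2.68. The trypsinogens Try4, Try5, Try10 and Prss2 were at 8.29 to 11.77 on that array. Ptf1a, a transcription factor of the acinar lineage, was the exception, at 3.21 there and 3.21 on each OB-control array. With that array included the list's median difference was -1.91 on the log2 scale, with 26 of 27 means lower in OB-control mice. None passed the test (adjusted p of 0.47 or more from limma for all 27, 0 at an unadjusted p under 0.05). For Cpa1 the SD within the N-control group was 4.63, beside a difference of -2.68. Over all genes, 31 were more than 4-fold above every other array on N-control replicate 2 alone, 22 of them on the list, and none of the 31 passed. The other 9 included Reg2, Reg3d, Tff2, Zg16 and Serpini2, secreted proteins of the gut and pancreas. No other array of the 6 had such a gene. Islet markers did not follow: the 5 measured had a mean of 3.75 to 3.94 on the N-control arrays and Ins2 stayed at 4.15 or less.

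**Figure D5:**
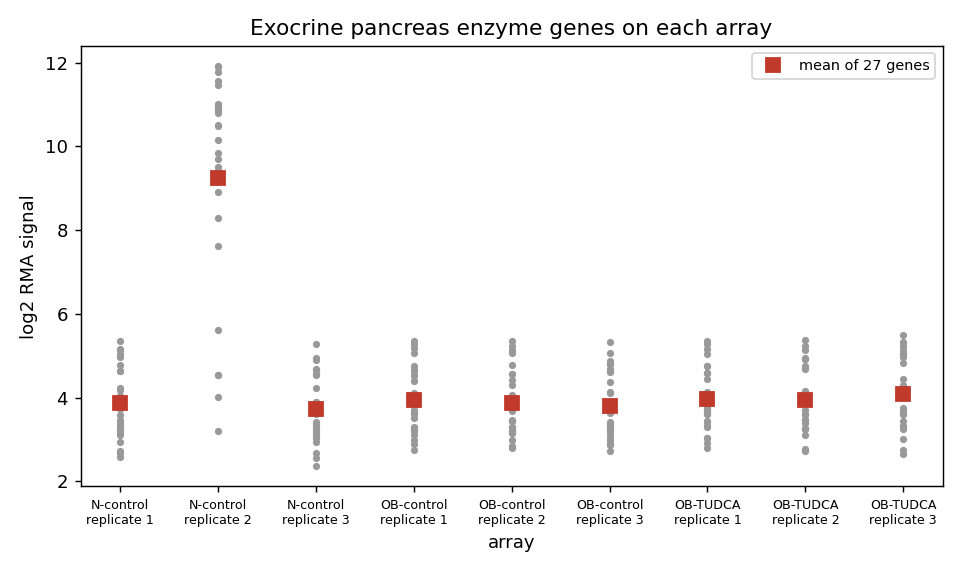
Log2 RMA signal of the 27 exocrine pancreas enzyme genes on each of the 9 arrays (grey points, 1 per gene) and their mean (red square). The mean is 9.25 on N-control replicate 2 and at most 4.09 on any other array.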

How the data were processed

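Liver RNA was hybridized to 9 arrays, labelled as 3 biological replicates a group. The deposited values are log2 signals that the authors made with RMA in Expression Console (version not given in the sources used here), with no genome build named. Of the probe sets, 21789 had 1 gene symbol in the platform annotation, 1621 several and 12146 none. Those with 1 symbol were averaged per symbol (19938 genes, 999 of them from several probe sets). Group means over the 9 arrays were fitted with limma 3.58.1 in R 4.3.3, and OB-control minus N-control was tested two-sided with the moderated statistic of eBayes (6 residual and 3.33 prior degrees of freedom), Benjamini-Hochberg adjusted over all genes with a threshold of 0.05. Unless an alternative is named, each p in the text comes from this test. It measures the spread between 3 replicates a group, and the number of arrays limits the precision. The procedure was tested on simulated data.

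The members and the 48 gene lists were chosen with earlier results of these data known. Genes named were the 25 largest rises and falls past the threshold with arrays apart, up to 6 members of each list past it (or, where none passed, the largest difference), Lep and the exocrine pancreas list. Abcd2, Adipoq, Alb, Cadps2, Cidec, Cyp1a2, Cyp7a1, Elovl3, Ghr, Hao2, Ifitm3, Igf1, Ins2, Plin2, Stat5b, Trim24, Tspan33 and the secreted proteins named beside the exocrine pancreas list lie outside this rule and were chosen after their values were seen. Alternatives covered normalization, low signals, the variance model, averaging, an exocrine pancreas covariate, a replicate block, a plain t-test per gene and each array left out. The OB-TUDCA columns served the spread, and their values are given for Nnt and the exocrine pancreas genes.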

Additional observations from a re-analysis of the deposited data

Results flagged for a closer look

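Probe sets with no gene symbol in the annotation used here took no part in the comparison. In the same fit to all 35556 probe sets, with p adjusted over these, 12 of the 12146 without a symbol were higher in ob/ob liver. Another 12 were lower, at the same threshold. The 91 higher (0.456%) and 98 lower (0.492%) of the 19938 genes tested come from a different fit and adjustment. They are therefore not a like background for these counts. The largest rise was in probe set 10359593, at 5.38, 4.38 and 5.53 in N-control and 8.90, 10.13 and 7.85 in OB-control mice. Its difference was 3.87 (standard error 0.54), with an adjusted p of 0.0346 from limma. What these probe sets measure was not tested.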

How the results depend on the processing

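No called gene named by the rule changed direction under any alternative, and Slco1a1 alone was past the threshold under all of them. The count of 91 higher and 98 lower became 170 and 188 with array weights, 25 and 40 with only the 6 arrays compared, and 32 and 38 with the exocrine pancreas mean as a covariate. It was 0 and 1 with a plain t-test per gene after Benjamini-Hochberg adjustment (893 and 756 before it), and 27 to 127 and 33 to 139 with each array left out in turn. Subtracting array medians gave 78 and 111, leaving out genes of low signal 109 and 125, a further quantile normalization 111 and 105, a trended robust prior 89 and 100, and single probe sets 89 and 103. Of 70 called genes named by the rule, 36 missed the threshold with only the 6 arrays, 35 with the covariate, 69 with the t-test, 9 with the replicate number as a block, 3 with medians subtracted and 2 with the trended prior. Fewer arrays leave fewer degrees of freedom, but the cause of these losses was not tested. Arrays with the same replicate number correlated in their deviations by 0.12, 0.05 and 0.21, and each array correlated best with its own number. The labels call the arrays biological replicates and name no pairing, so the main fit used none. What the shared numbers stand for was not tested. With the number as a replicate block, 97 genes were higher and 92 lower, 71 and 68 of them shared with the fit without it. Of 49 genes named by the rule that did not pass, Bhlhe41, F11, Lcn2 and Scd2 passed under some alternative.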
